A study of Mus musculus with 16 samples.

Results

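The genes described here are the cytochrome P450 (Cyp) genes of the mouse lung. They were taken by symbol: every gene whose name in the platform annotation is Cyp, a family number, 1 lower-case letter and a number, with nothing after it, on a probe set with 1 symbol. This gave 81 genes of 19938 measured, each on 1 probe set. A further 7 genes of such a name (Cyp2a4, Cyp2a5, Cyp2c40, Cyp2c69, Cyp3a59, Cyp4a32 and Cyp4v3) lie only on probe sets that carry several symbols and were left out. Cyp2a5, a well-known P450 of the airway, is among them. P450 genes with a symbol of another form, such as Cyp51, fall outside the rule.

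The series put crystalline silica (CS), a dust that inflames and scars the lung, or PBS, a salt solution, into the windpipe of C57BL/6 mice, for which the labels give an age of 10 to 12 weeks. Its question was the effect of silica on lungs that carry the KRasLA1 allele, and whether it differs in mice without BLT1, a leukotriene B4 receptor. RNA of whole lungs was read on 16 Affymetrix whole-transcript arrays, each with 1 sample. The groups at day 2 were BLT1+/+ and BLT1-/- mice, and the groups at day 60 were BLT1+/+KRasLA1 and BLT1-/-KRasLA1 mice. Each of these 4 genotypes has 3 CS lungs, called biological replicates in the labels, and 1 PBS array of RNA pooled from 3 mice. The BLT1-/- mice lack the receptor in every cell. KRasLA1 is a tumor allele that stays silent until chance recombination turns it on in scattered cells. Day and KRasLA1 go together here and cannot be told apart. The PBS pools have no replicate, and the spread of the CS lungs was used for them. Nothing in the labels ties replicates to separate animals beyond the word biological, so p-values speak only of the spread seen among these samples, which may be partly technical. Sex-linked Eif2s3y was high in 3 arrays, at 10.09 in BLT1+/+KRasLA1 CS replicate 2 and at 9.68 and 9.04 in the day 60 pools, against 4.27 to 4.74 in the other 13. Xist, also sex-linked, was at 6.61 in that lung and at 12.32 and 12.16 in those pools, against 12.75 to 13.06 elsewhere. The labels give no sex. In Eif2s3y the day 60 pools were far above every day 60 CS lung but that one. In Xist they lay far above that lung and somewhat below the other day 60 CS lungs. Silica and this difference of the pools cannot be told apart in the day 60 responses, nor in their comparison with day 2.

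P450 enzymes are heme proteins that insert an oxygen atom into fats, steroids, vitamins and foreign compounds, with electrons passed on by a reductase. Members of families 1 to 3 mainly oxidise drugs and pollutants, and those of family 4 hydroxylate fatty acids. The others have set tasks in the making and breakdown of bile acids, oxysterols, steroid hormones, vitamin D and retinoic acid. In the lung the club cells of the bronchioles are the best known site of P450 activity, where these enzymes also turn some inhaled chemicals into toxic products.

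Most of the family was dim in these lungs. All values are log2 expression levels, so a difference of 1 is a doubling of signal. Of the 81 genes, 16 (19.8%) had a mean over the 16 arrays above that of the median gene, 8.82, and are called bright here. The other 65 are called dim, and 49 of them lay below the 25th percentile of all genes. The lowest bright member was Cyp4f39 at 8.86 and the highest dim member Cyp26b1 at 8.78. A rank of brightness depends on the probes and is no measure of RNA amount between genes. The bright members were Cyp2f2 (14.12), Cyp2b10 (13.40), Cyp4b1 (12.98), Cyp2s1 (11.77), Cyp2d22, Cyp39a1, Cyp20a1, Cyp4f13, Cyp4f16, Cyp4f18, Cyp27a1, Cyp2e1, Cyp7b1, Cyp2j6, Cyp1b1 and Cyp4f39. The first 4 were in the top decile of all genes. Roles were assigned by family number alone. By role, 7 of 52 genes of families 1 to 3 were bright and 5 of 13 of family 4. So were 3 of 7 of the sterol and vitamin D families, and the orphan Cyp20a1. None of the 5 steroid hormone enzymes and none of the 3 retinoic acid hydroxylases was bright. Liver genes, as a check for tissue carried along, had a mean level between 7.14 and 7.53 on every array, while club cell genes lay between 12.20 and 12.82.

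At day 2 silica raised 2 P450 genes and lowered 6. Cyp7b1 and Cyp1b1 rose. Cyp27a1, Cyp2s1, Cyp2d22, Cyp2c23, Cyp2j9 and Cyp2f2 fell. These 8 are 9.88% of the members, against 12.4% of all genes that passed (limma, adjusted p under 0.05), 8.03% higher and 4.37% lower. The family as a whole was thus called no more often than other genes. The median response was -0.05 over members and -0.02 over all genes, and 25 of 81 members had a positive value. Among the 16 bright members 6 passed (37.5%), against 19.1% of the 9969 genes above the median level. Among the 65 dim members 2 passed (3.08%). Without the BLT1-/- PBS pool only Cyp7b1 of the 8 passed, and the other 7 kept their direction. In this and every fit without a pool, the silica response of that day is that of the other BLT1 genotype alone. Its standard error is then larger, for Cyp1b1 0.22 against 0.15 with both pools.

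**Figure D1:**
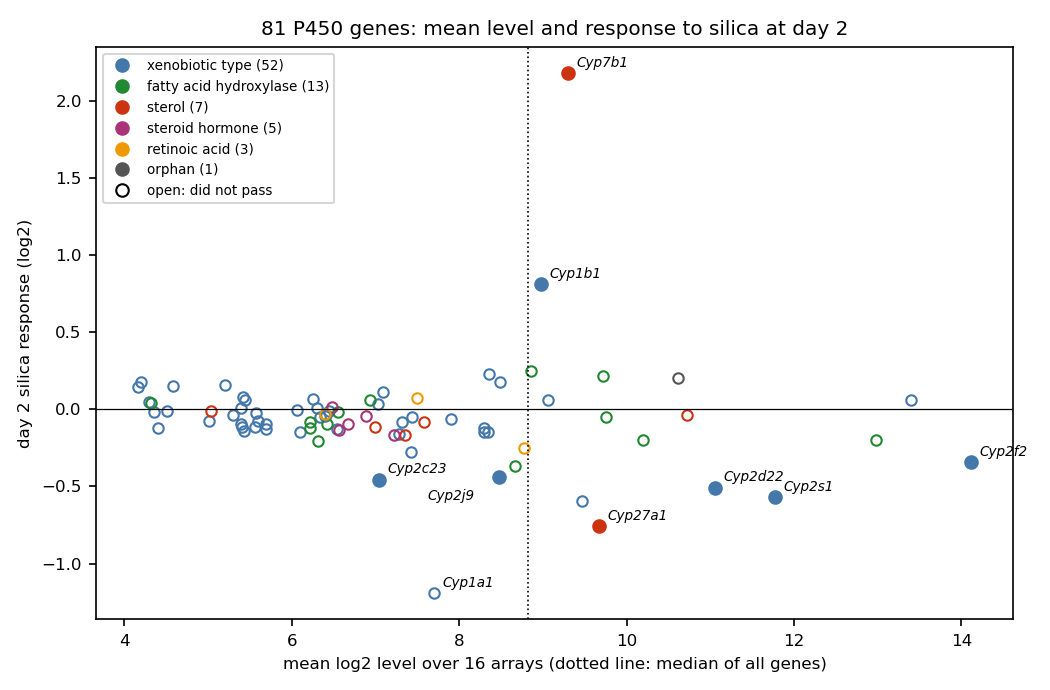
Mean log2 level over 16 arrays (x axis) and mean silica response at day 2 in log2 units (y axis) of the 81 P450 genes, coloured by role, with filled points for genes past the threshold and the dotted line at the median gene. Most genes lie left of the line near 0, and Cyp7b1 stands highest at 2.18.

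Cyp7b1, the enzyme that adds a hydroxyl group to oxysterols and clears them, gave the largest change of the family. In BLT1+/+ lungs at day 2 it was at 8.25 in the PBS pool and at 9.87, 10.56 and 10.37 in the CS lungs (10.26 ± 0.36, SD, n = 3). In BLT1-/- lungs it was at 8.07 in the pool and at 10.31, 10.61 and 10.30 with silica (10.41 ± 0.17, SD, n = 3). All 6 CS lungs lay over 1 unit above either pool. Cyp7b1 rose by 2.18 ± 0.17 (SE), which is 4.53-fold (limma, adjusted p = 2.1e-05).

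At day 60, with KRasLA1, Cyp7b1 rose again, but less. The BLT1+/+KRasLA1 pool was at 8.15 and its CS lungs at 9.13, 9.12 and 8.97 (9.07 ± 0.09, SD, n = 3). The BLT1-/-KRasLA1 pool was at 7.73 and its CS lungs at 8.77, 9.38 and 9.23 (9.12 ± 0.32, SD, n = 3). Every CS lung was above both pools. The rise was 1.16 ± 0.17, or 2.24-fold (adjusted p = 0.00182). Without the BLT1-/-KRasLA1 pool it was 0.93 and missed the threshold (adjusted p = 0.128). The lungs taken after silica did not overlap between days: 9.87 to 10.61 at day 2 and 8.77 to 9.38 at day 60, a fall of 1.24 ± 0.12 on the log2 scale (adjusted p = 1.46e-05). The response itself was smaller at day 60 by 1.02 ± 0.24 (95% interval of the difference -1.54 to -0.49, adjusted p = 0.0481). This difference of responses was lost in 9 of 12 fits that each left out 1 CS lung (adjusted p up to 0.0802) and in each of the 4 that left out a pool.

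Cyp7b1 works next to Ch25h, which makes the 25-hydroxycholesterol that Cyp7b1 converts. The product is a ligand of Gpr183, a receptor that guides B cells and dendritic cells, and Hsd3b7 inactivates it. At day 2 Ch25h was at 8.55 and 8.22 in the pools and between 9.71 and 10.65 in the CS lungs, a rise of 1.93 ± 0.15 (3.82-fold, adjusted p = 2e-05). At day 60 it was at 8.73 and 9.08 in the pools and between 10.23 and 10.76 after silica, a rise of 1.65 ± 0.15 (3.13-fold, adjusted p = 6.66e-05). Ch25h and Cyp7b1 were thus both higher in 6 of 6 lungs on both days. Hsd3b7 was at -0.00 and 0.20 and did not pass. Gpr183 fell at day 2 (-0.45, adjusted p = 0.00341) and rose at day 60 (0.59, adjusted p = 0.00116), and its responses differed by 1.04 ± 0.11 (adjusted p = 0.000806). Its pools also differed, at 9.11 and 9.07 at day 2 and at 8.67 and 8.41 at day 60 (-0.55 ± 0.10, adjusted p = 0.0337), so the day 60 rise was measured against lower pools.

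**Figure D2:**
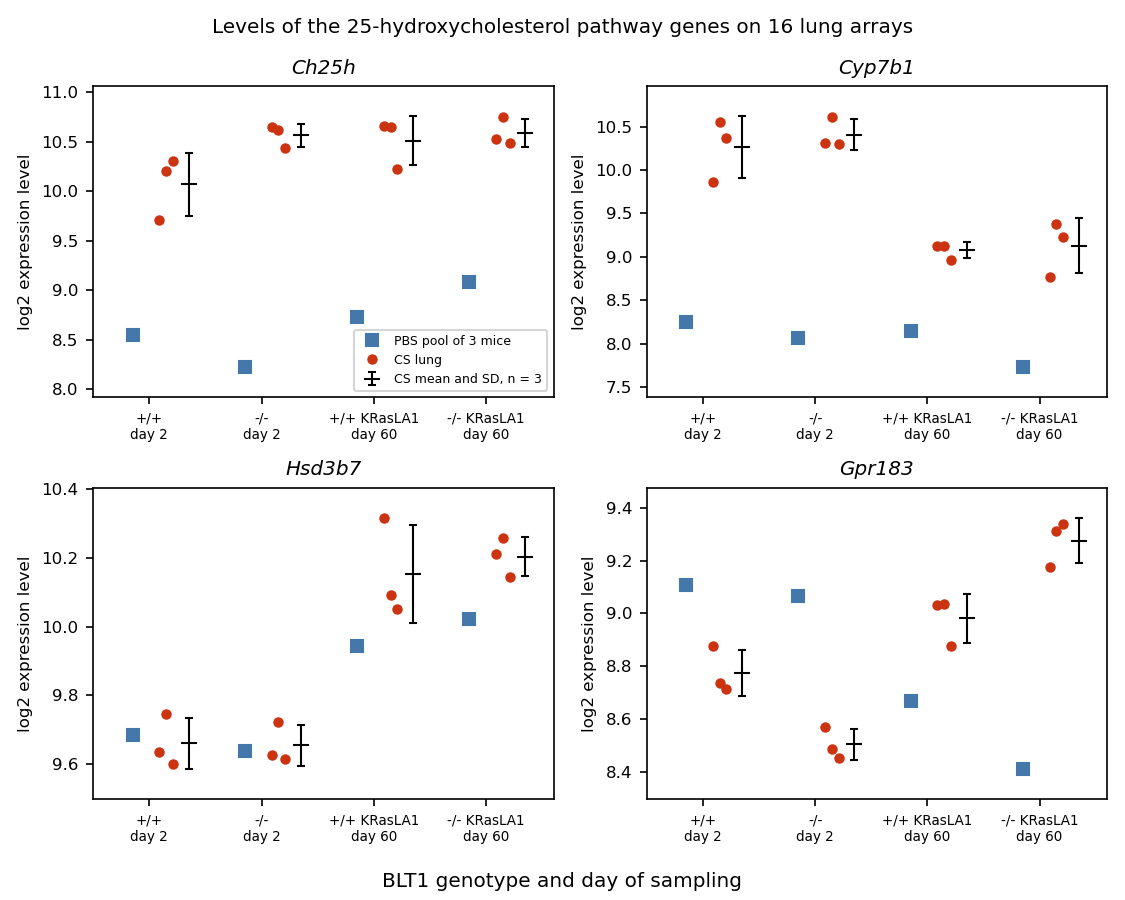
Log2 levels of Ch25h, Cyp7b1, Hsd3b7 and Gpr183 on each of 16 arrays, by BLT1 genotype and day. Squares are PBS pools of 3 mice, points are CS lungs, and bars show the mean and SD of 3 CS lungs; Cyp7b1 reached 10.61 at day 2 and 9.38 at day 60.

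Of the list of oxysterol and sterol genes, 8 of 11 were measured. At day 2, 2 rose and 3 fell (median -0.04), with the squalene epoxidase Sqle at 0.65 and the cholesterol exporters Abca1 and Abcg1 at -0.65 and -0.51. At day 60, 2 rose and 0 fell (median 0.19). Marker genes of immune cells changed as well, in differing directions. B cell markers fell in 8 of 9 at day 2 (median -1.05), with a mean level of 9.62 and 9.81 in the pools and 8.40 to 9.16 in the CS lungs. At day 60 they rose in 1 of 9 (median 0.44). Macrophage and monocyte markers rose in 4 of 12 and fell in 1 at day 2 (median 0.26), and rose in 8 of 12 at day 60 (median 0.67). In RNA of a whole lung, fewer cells of a type and less RNA per cell cannot be told apart. The part of these cells in the Cyp7b1 and Gpr183 values was not tested.

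Cyp27a1, the mitochondrial sterol hydroxylase that makes 27-hydroxycholesterol, went the other way at day 2. It was at 10.22 in the BLT1+/+ pool and at 9.75, 9.49 and 9.26 in the CS lungs (9.50 ± 0.25, SD, n = 3). It was at 10.04 in the BLT1-/- pool and at 9.37, 9.29 and 9.08 after silica (9.24 ± 0.15, SD, n = 3). All 6 CS lungs were below both pools, and Cyp27a1 fell by 0.76 ± 0.13 on the log2 scale (1.69-fold, adjusted p = 0.00249). Without the BLT1-/- pool the value was -0.72 (adjusted p = 0.0781). At day 60 the BLT1+/+KRasLA1 pool was at 10.11 and its CS lungs at 9.65, 9.44 and 9.81, and the BLT1-/-KRasLA1 pool at 9.89 with CS lungs at 9.90, 9.65 and 9.75. The BLT1-/-KRasLA1 lungs lay on both sides of their pool, and the response, -0.30 ± 0.13, did not pass (adjusted p = 0.297). Between CS lungs Cyp27a1 was higher at day 60 by 0.33 ± 0.09 (adjusted p = 0.0167).

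The other 5 members of the sterol and vitamin D families did not pass on either day. Cyp39a1, which acts on 24-hydroxycholesterol, was bright, at -0.04 on day 2 (95% interval -0.22 to 0.15) and -0.15 on day 60 (-0.34 to 0.03). The bile acid enzymes Cyp7a1 (-0.01 and -0.03) and Cyp8b1 (-0.16 and -0.13) were dim, as were the vitamin D activating enzyme Cyp27b1 (-0.11 and -0.13) and the brain cholesterol hydroxylase Cyp46a1 (-0.08 and -0.05).

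Family 1 holds Cyp1a1, Cyp1a2 and Cyp1b1, textbook targets of the aryl hydrocarbon receptor (AHR), which binds short DNA motifs with the core GCGTG. In the 250 bases before the start site, both Cyp1a1 and Cyp1b1 hold this core, while Cyp1a2 does not. The RefSeq sequences (GRCm38.p6) of Cyp1a1 and Cyp1b1 are shown because their levels lay on opposite sides of the pools. They run 5′ to 3′ on the strand of the gene, and capitals mark GCGTG, its reverse complement CACGC, and the TATA box letters TATAAA. The Cyp1a1 window is chr9:57697363-57697612 on the plus strand and the Cyp1b1 window chr17:79715062-79715311 on the minus strand.
Cyp1a1: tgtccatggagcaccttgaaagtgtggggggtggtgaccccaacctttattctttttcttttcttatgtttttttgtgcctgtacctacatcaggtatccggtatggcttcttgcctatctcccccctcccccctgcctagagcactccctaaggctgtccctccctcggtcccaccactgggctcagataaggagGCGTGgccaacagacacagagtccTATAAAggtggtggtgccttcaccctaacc
Cyp1b1: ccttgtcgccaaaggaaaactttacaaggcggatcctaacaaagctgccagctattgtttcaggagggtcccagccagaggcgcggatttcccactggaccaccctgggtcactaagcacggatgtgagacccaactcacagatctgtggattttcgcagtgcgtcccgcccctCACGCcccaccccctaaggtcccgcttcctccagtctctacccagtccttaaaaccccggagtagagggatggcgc
RefSeq promoters were found for 62 of the 81 members, 70 promoters in all. GCGTG on either strand was in 14 of them (20%), against 28.2% of all 32851 promoters, so the core was no more frequent in this family. TATAAA on the gene's own strand was in 17 (24.3%), against 7.59% of all promoters. These are letter matches and not binding sites.

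Cyp1b1, which oxidises polycyclic hydrocarbons and estrogens and is found outside the liver, rose at day 2. It was at 8.33 in the BLT1+/+ pool and at 8.81, 9.31 and 9.40 in the CS lungs (9.18 ± 0.32, SD, n = 3). It was at 8.49 in the BLT1-/- pool and at 9.28, 9.32 and 9.20 after silica (9.27 ± 0.06, SD, n = 3). The CS lungs and the pools did not overlap, and the rise was 0.81 ± 0.15 (1.76-fold, adjusted p = 0.00419). Without the BLT1-/- pool the value was 0.85 (adjusted p = 0.0781). At day 60 the BLT1+/+KRasLA1 pool was at 8.56 with CS lungs at 9.16, 9.14 and 8.87, and the BLT1-/-KRasLA1 pool at 8.68 with CS lungs at 8.76, 9.25 and 9.12. All 6 were above both pools, the lowest of them barely, and the value of 0.43 ± 0.15 did not pass (adjusted p = 0.176). Fibroblast and smooth muscle markers, a class in which Cyp1b1 is often found, rose in 3 of 10 at day 2 with a median of -0.08, and their part in the Cyp1b1 value was not tested.

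Cyp1a1, the classic inducible AHR target, varied most of all members, over a range of 3.59. At day 2 it was at 8.62 in the BLT1+/+ pool and at 7.31, 6.94 and 6.92 in the CS lungs, and at 7.73 in the BLT1-/- pool and at 6.96, 6.69 and 7.10 after silica. At day 60 it was at 8.16 in the BLT1+/+KRasLA1 pool with CS lungs at 7.23, 7.14 and 7.83, and at 10.27 in the BLT1-/-KRasLA1 pool with CS lungs at 9.70, 7.11 and 7.48. Every CS lung was below its own pool on both days. The values of -1.19 ± 0.47 (adjusted p = 0.127) and -1.47 ± 0.47 (adjusted p = 0.123) did not pass, with 95% intervals from -2.21 to -0.17 and from -2.49 to -0.45. One lung, BLT1-/-KRasLA1 CS replicate 1 at 9.70, stood far above the others of its group, and without it Cyp1a1 passed on both days. This day 60 lung enters the day 2 test only through the spread shared by all groups, and leaving it out does not change the day 2 value. The pools themselves spread from 7.73 to 10.27. Cyp1a2 was dim, at -0.01 and -0.29.

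Of the 10 listed genes of AHR and of the xenobiotic receptors, 1 rose and 1 fell at day 2 (median -0.07), and 0 rose and 1 fell at day 60 (median -0.04). The aldehyde dehydrogenase Aldh3a1, an AHR target, fell on both days, at -0.63 ± 0.09 (adjusted p = 0.000638) and -0.49 ± 0.09 (adjusted p = 0.00523). Hif1a, which shares the partner Arnt with AHR, rose by 0.58 at day 2. Ahr (-0.21 and -0.04), its repressor Ahrr (-0.18 and -0.12), its target Tiparp (0.01 and -0.02) and Nqo1 (0.16 and -0.41) did not pass on either day. The members and neighbours of this pathway thus did not go one way.

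Cyp2f2, the main naphthalene-oxidising enzyme of mouse club cells, was the brightest member. At day 2 it was at 14.34 in the BLT1+/+ pool and at 14.10, 14.08 and 14.00 in the CS lungs (14.06 ± 0.05, SD, n = 3). In BLT1-/- lungs it was at 14.22 in the pool and at 13.92, 13.83 and 13.70 after silica (13.81 ± 0.11, SD, n = 3). The 6 CS lungs were below both pools, and the fall was 0.34 ± 0.06 on the log2 scale (1.27-fold, adjusted p = 0.0025). Without the BLT1-/- pool the value was -0.28 (adjusted p = 0.136). At day 60 it was at 14.35 in the BLT1+/+KRasLA1 pool with CS lungs at 14.14, 14.09 and 14.21, and at 14.32 in the BLT1-/-KRasLA1 pool with CS lungs at 14.13, 14.25 and 14.21. These 6 were below both pools too, but the value of -0.17 ± 0.06 did not pass (adjusted p = 0.173). After silica Cyp2f2 was higher at day 60 than at day 2 by 0.23 ± 0.04 (adjusted p = 0.000963).

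Cyp2s1, an airway enzyme that acts on retinoids and eicosanoids, fell at day 2. It was at 11.90 in the BLT1+/+ pool and at 11.50, 11.57 and 11.28 after silica (11.45 ± 0.15, SD, n = 3). It was at 11.99 in the BLT1-/- pool and at 11.35, 11.48 and 11.06 after silica (11.30 ± 0.21, SD, n = 3). The groups did not overlap, and the fall was 0.57 ± 0.11 on the log2 scale (1.48-fold, adjusted p = 0.00586), or 0.45 without the BLT1-/- pool (adjusted p = 0.225). At day 60 the pools were at 12.04 and 12.05, with CS lungs at 12.14, 11.99 and 11.97 in BLT1+/+KRasLA1 and at 11.82, 12.18 and 12.05 in BLT1-/-KRasLA1. Those lungs lay on both sides of the pools, at -0.02 ± 0.11. The difference of the responses, 0.55 ± 0.16, did not pass (adjusted p = 0.107), and passed with array weights and with replicate numbers as a block. The CS lungs did not overlap between days, and Cyp2s1 was higher at day 60 by 0.65 ± 0.08 (1.57-fold, adjusted p = 6.55e-05).

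Cyp2d22, a drug-oxidising enzyme often likened to human CYP2D6, fell at day 2. Its BLT1+/+ pool was at 11.29 and the CS lungs at 11.02, 11.09 and 11.05, and its BLT1-/- pool at 11.65 and the CS lungs at 11.05, 10.94 and 10.64. The fall was 0.51 ± 0.13 on the log2 scale (1.42-fold, adjusted p = 0.0225), all 6 lungs being below both pools. Without the BLT1-/- pool, the higher of the pair, the value was -0.24 (adjusted p = 0.704). At day 60 the BLT1+/+KRasLA1 pool was at 11.40 with CS lungs at 10.91, 10.50 and 11.01, and the BLT1-/-KRasLA1 pool at 11.30 with CS lungs at 11.26, 10.95 and 10.94. Again all 6 were below both pools, and the value was -0.42 ± 0.13 (adjusted p = 0.107).

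**Figure D3:**
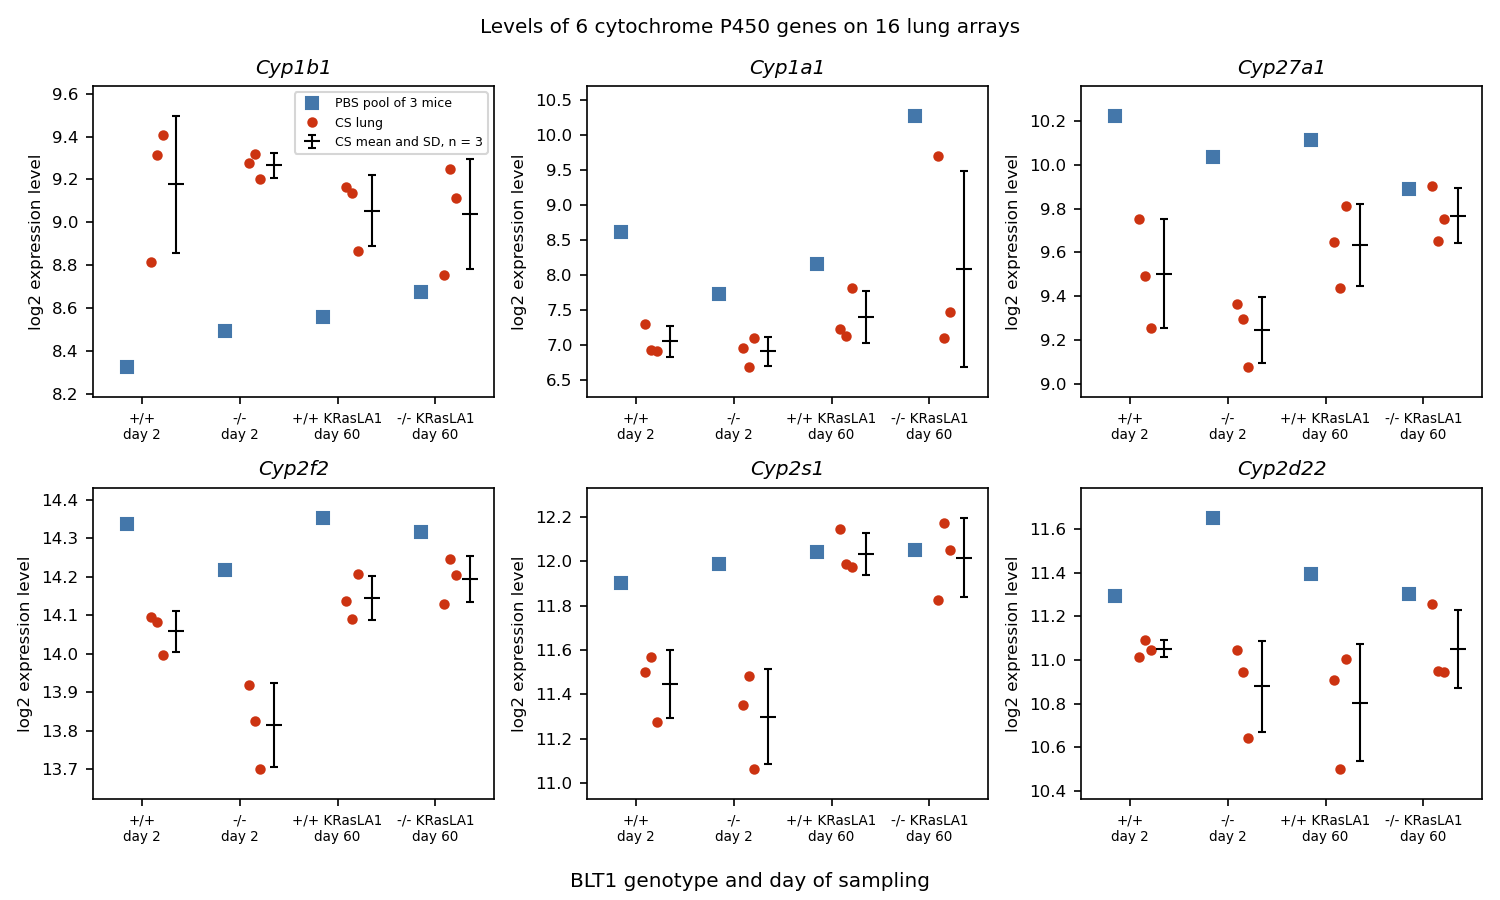
Log2 levels of Cyp1b1, Cyp1a1, Cyp27a1, Cyp2f2, Cyp2s1 and Cyp2d22 on each of 16 arrays, by BLT1 genotype and day, each panel with its own axis. Squares are PBS pools of 3 mice, points are CS lungs, and bars show the mean and SD of 3 CS lungs; the Cyp2s1 lungs after silica lie below 11.6 at day 2 and above 11.8 at day 60.

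A pair of dim genes fell with them. Cyp2j9 was at 8.81 and 8.59 in the day 2 pools. Its CS lungs were at 8.49, 8.30 and 8.16 in BLT1+/+ and at 8.34, 8.28 and 8.02 in BLT1-/-. It fell by 0.44 ± 0.12 on the log2 scale (1.35-fold, adjusted p = 0.0284). At day 60 its pools were at 8.77 and 8.66, with CS lungs at 8.31, 8.33 and 8.67 in BLT1+/+KRasLA1 and at 8.63, 8.58 and 8.61 in BLT1-/-KRasLA1, a value of -0.19 that did not pass. Its CS lungs were higher at day 60 by 0.26 ± 0.08 (adjusted p = 0.0355), a call lost in 7 of 12 fits that left out 1 lung (adjusted p up to 0.0879). Cyp2c23, an arachidonic acid epoxygenase best known from the kidney, was at 7.51 and 7.38 in the day 2 pools. Its CS lungs were at 7.04, 6.98 and 7.02 in BLT1+/+ and at 7.05, 6.99 and 6.86 in BLT1-/-. It fell by 0.46 ± 0.12 on the log2 scale (1.37-fold, adjusted p = 0.0297). At day 60 its pools were at 7.18 and 7.22, with CS lungs at 6.70, 6.67 and 7.18 in BLT1+/+KRasLA1 and at 7.09, 6.95 and 6.86 in BLT1-/-KRasLA1 (-0.29, adjusted p = 0.298). Both calls at day 2 were lost without the BLT1+/+ pool (adjusted p = 0.193 for Cyp2j9 and 0.173 for Cyp2c23) as well as without the BLT1-/- pool.

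Some marker genes of airway and vessel cells also fell. Of 11 club cell markers 5 fell and 0 rose at day 2 (median -0.17), and 5 fell and 0 rose at day 60 (median -0.22). Their mean level was 12.71 in the BLT1+/+ pool and 12.53 to 12.58 in its CS lungs at day 2. It was 12.58 in the BLT1-/- pool and 12.20 to 12.39 in its CS lungs. At day 60 it was 12.82 and 12.80 in the pools and between 12.49 and 12.62 in the CS lungs. The secretoglobin Scgb3a2 was at 11.41 and 11.22 in the day 2 pools and between 10.44 and 10.82 in the CS lungs, a range that lay below both pools. The defining club cell marker Scgb1a1, in the brightest percentile of genes, was at 14.45 and 14.39 in the day 2 pools and between 14.25 and 14.38 in the CS lungs. All 6 lungs were below both pools, and the difference of -0.12 ± 0.05 did not pass (adjusted p = 0.183). Of 10 ciliated cell markers 3 fell at day 2 (median -0.28) and 0 at day 60. Of 10 endothelial markers 2 fell at day 2 (median -0.32) and 0 at day 60 (median -0.16). The part of airway and endothelial cell numbers in the falls of Cyp2f2 and Cyp2s1 was not tested.

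The other bright members of family 2 did not pass in either response. Cyp2b10, a barbiturate-inducible enzyme in liver, was at 13.58 in the BLT1+/+ pool with CS lungs at 13.48, 13.64 and 13.58, and at 13.23 in the BLT1-/- pool with CS lungs at 13.39, 13.20 and 13.50. Its day 2 value was 0.06 ± 0.10 (95% interval -0.15 to 0.27). At day 60 the pools were at 13.50 and 13.61, with CS lungs at 13.39, 13.08 and 13.36 in BLT1+/+KRasLA1 and at 13.40, 13.39 and 13.13 in BLT1-/-KRasLA1. All 6 lay below both pools, at -0.26 ± 0.10 (adjusted p = 0.209).

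Cyp2e1, the ethanol-oxidising enzyme, ranged from 8.41 to 10.32. At day 2 its pools were at 10.04 and 9.27, with CS lungs at 9.74, 8.60 and 8.80 in BLT1+/+ and at 9.54, 9.30 and 8.41 in BLT1-/-. At day 60 its pools were at 10.27 and 10.13, with CS lungs at 10.32, 9.47 and 9.59 in BLT1+/+KRasLA1 and at 9.41, 9.34 and 9.30 in BLT1-/-KRasLA1. Lungs lay on both sides of their pools, and its values of -0.59 ± 0.31 and -0.63 ± 0.31 did not pass. Cyp2j6, an epoxygenase, was at 9.07 and 8.80 in the day 2 pools, with CS lungs at 8.88, 9.05 and 8.76 in BLT1+/+ and at 9.01, 9.10 and 9.18 in BLT1-/-. Its day 60 pools were at 9.12 and 9.20, with CS lungs at 9.01, 9.31 and 9.32 in BLT1+/+KRasLA1 and at 8.89, 9.11 and 9.15 in BLT1-/-KRasLA1. Lungs lay on both sides of the pools here too, at 0.06 ± 0.11 and -0.03 ± 0.11.

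At day 60 3 members passed: Cyp7b1 and Cyp4f18 were higher and Cyp3a13 lower. This is 3.7% of the members, against 4.02% of all genes, 3.35% higher and 0.677% lower. The median was -0.05 over members and -0.03 over all genes. Of the 16 bright members 2 passed (12.5%), against 6.02% of genes above the median level, and of the 65 dim members 1 (1.54%). Without the BLT1-/-KRasLA1 pool none of them passed, and without the BLT1+/+KRasLA1 pool only Cyp7b1 did. Without BLT1+/+KRasLA1 CS replicate 2, the lung with high Eif2s3y, Cyp4f18 and Cyp3a13 did not pass and Cyp7b1 did. The day 60 pools, also high in Eif2s3y, stayed in that fit.

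Cyp4f18, a hydroxylase of leukotriene B4 that is found in myeloid cells, was higher after silica at day 60. It was at 9.25 in the BLT1+/+KRasLA1 pool with CS lungs at 10.03, 9.87 and 9.79, and at 8.91 in the BLT1-/-KRasLA1 pool with CS lungs at 9.52, 9.95 and 10.13. No lung overlapped with a pool, and the rise was 0.80 ± 0.21 (1.74-fold, adjusted p = 0.0456). At day 2 it was at 9.59 and 9.58 in the pools, with CS lungs at 9.62, 9.82 and 10.57 in BLT1+/+ and at 9.66, 9.73 and 9.41 in BLT1-/-. One lung, BLT1+/+ CS replicate 3 at 10.57, stood above the others, and the value of 0.22 did not pass (adjusted p = 0.593). Between days the CS lungs differed by 0.08, which did not pass, while the day 60 pools lay below those of day 2 by 0.51 on the log2 scale, which did not pass (adjusted p = 0.508). The day 60 rise was thus set against lower pools. Macrophage and monocyte markers averaged 10.40 and 10.31 in the day 60 pools and 10.82 to 11.18 in the CS lungs, and their part in this value was not tested.

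Cyp3a13, a drug-oxidising enzyme found in the gut, was lower at day 60. It was at 8.76 in the BLT1+/+KRasLA1 pool with CS lungs at 8.17, 8.11 and 8.40, and at 8.79 in the BLT1-/-KRasLA1 pool with CS lungs at 7.93, 8.51 and 7.89. The fall was 0.60 ± 0.16 on the log2 scale (1.52-fold, adjusted p = 0.0483), and all 6 lungs were below both pools. At day 2 it was at 8.50 and 7.96 in the pools, with CS lungs at 8.40, 8.73 and 8.51 in BLT1+/+ and at 8.18, 8.38 and 8.54 in BLT1-/-, and 0.23 did not pass (adjusted p = 0.417). The day 60 pools were higher than those of day 2 by 0.55 ± 0.19 (adjusted p = 0.286), so the fall was set against higher pools. The difference of its responses, -0.84 ± 0.22, did not pass (adjusted p = 0.0748). The calls of Cyp4f18 and Cyp3a13 were each lost in 4 of 6 fits that left out 1 day 60 CS lung (adjusted p up to 0.0932 and 0.0956).

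Among the rest of family 4, Cyp4b1 and Cyp4f15 were below their own pools in every CS lung of both days without passing. Cyp4b1 is a lung enzyme that bioactivates inhaled toxicants. At day 2 it was at 13.19 in the BLT1+/+ pool with CS lungs at 13.12, 13.13 and 13.10, and at 13.21 in the BLT1-/- pool with CS lungs at 12.98, 12.92 and 12.76. At day 60 it was at 13.15 in the BLT1+/+KRasLA1 pool with CS lungs at 12.86, 12.44 and 12.81, and at 13.20 in the BLT1-/-KRasLA1 pool with CS lungs at 13.01, 12.94 and 12.78. Its values were -0.20 ± 0.10 (adjusted p = 0.225) and -0.37 ± 0.10 (adjusted p = 0.0516). The day 60 value passed with array weights, with replicate numbers as a block and with only genes above the median level. It also passed without any 1 of the 3 BLT1+/+KRasLA1 CS lungs. The same held without BLT1-/-KRasLA1 CS replicate 1 and without BLT1-/- CS day 2 replicate 3. Cyp4f15, an eicosanoid hydroxylase, was at -0.37 (adjusted p = 0.0711) and -0.44 (adjusted p = 0.0701). It passed on both days with quantile normalization, with array weights and with replicate numbers as a block.

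Cyp4f13 and Cyp4f39 did not pass in either response but differed between the CS lungs of the days. Cyp4f13 was at 10.27 and 10.20 in the day 2 pools, with CS lungs at 10.22, 10.19 and 9.88 in BLT1+/+ and at 10.05, 9.99 and 9.85 in BLT1-/-. At day 60 it was at 10.41 and 10.24 in the pools, with CS lungs at 10.33, 10.32 and 10.25 in BLT1+/+KRasLA1 and at 10.27, 10.28 and 10.42 in BLT1-/-KRasLA1. The CS lungs did not overlap and differed by 0.28 ± 0.06 (1.21-fold, adjusted p = 0.00543). Cyp4f39, which makes the very long hydroxy fatty acids of the skin barrier, was at 8.58 and 8.32 in the day 2 pools, with CS lungs at 8.53, 8.72 and 8.54 in BLT1+/+ and at 8.69, 8.83 and 8.91 in BLT1-/-. At day 60 its pools were at 8.89 and 8.87, with CS lungs at 9.25, 9.36 and 9.08 in BLT1+/+KRasLA1 and at 8.92, 9.24 and 9.05 in BLT1-/-KRasLA1. These did not overlap either, at 0.45 ± 0.07 (1.37-fold, adjusted p = 0.000556), and the pools differed in the same direction by 0.43 ± 0.13 (adjusted p = 0.196). Cyp4f16 was at -0.05 and 0.10, and the peroxisome proliferator targets Cyp4a10 (-0.20 and 0.17) and Cyp4a14 (-0.12 and -0.12) were dim and did not pass.

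The steroid hormone enzymes Cyp11a1, Cyp11b1, Cyp11b2, Cyp17a1 and Cyp21a1 had 0 of 5 past the threshold on either day, with day 2 values between -0.17 and 0.02 and day 60 values between -0.11 and 0.08. The retinoic acid hydroxylases Cyp26a1, Cyp26b1 and Cyp26c1 had 0 of 3, at -0.03, -0.25 and 0.07 on day 2. Cyp26b1 ranged over 1.01 without separating the groups, at -0.25 ± 0.24 and 0.25 ± 0.24. The orphan Cyp20a1, which has no settled substrate, was above its own pool in 6 of 6 lungs at day 2, at 0.20 ± 0.08 (adjusted p = 0.127), and at -0.08 at day 60.

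**Figure D4:**
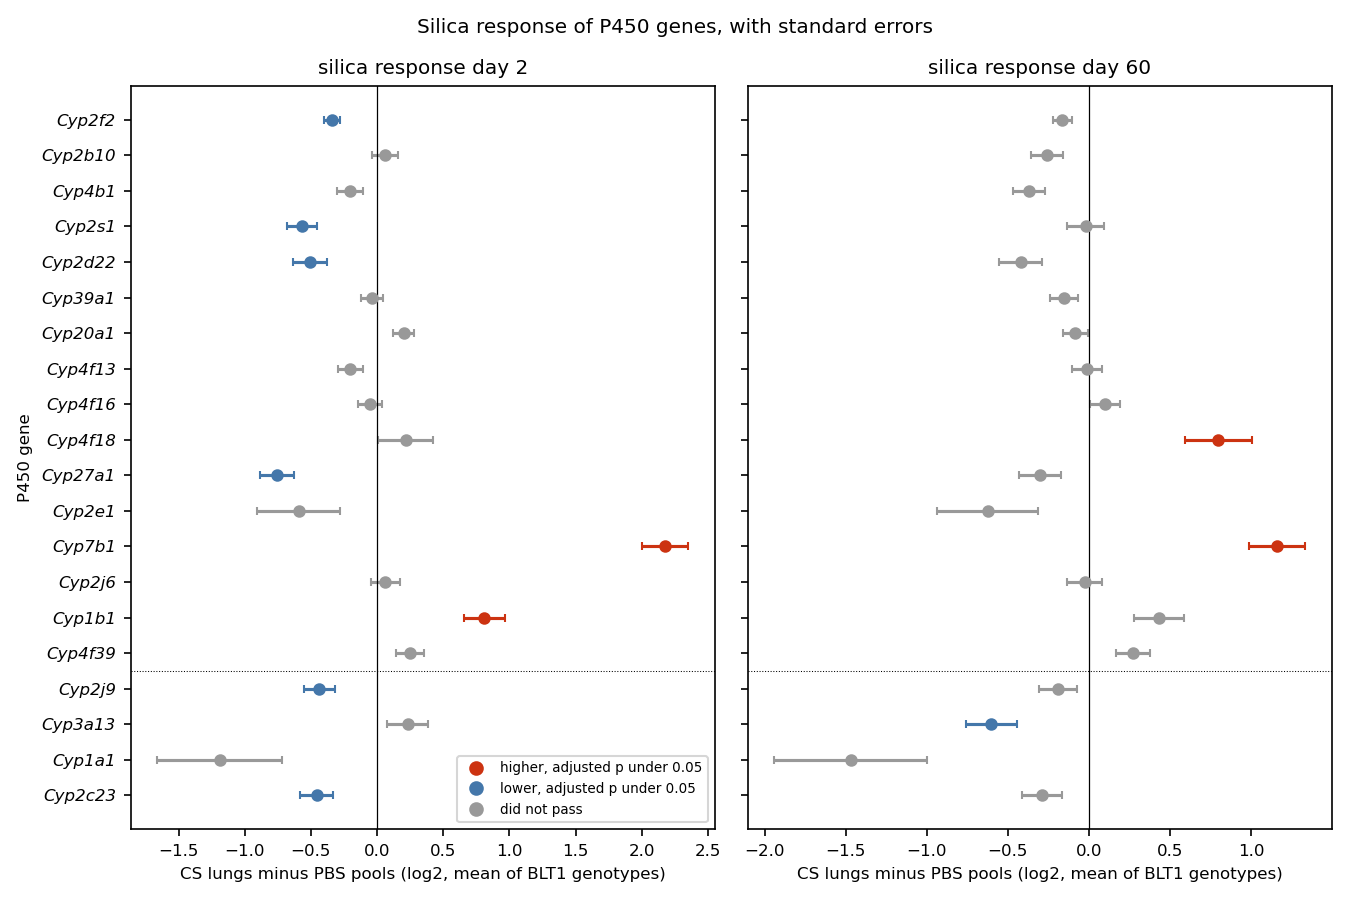
Mean silica response in log2 units (x axis, with SE) at day 2 and day 60 of the 16 bright P450 genes in order of level and, under the dotted line, of 4 dim genes named in the text. Red points were higher and blue points lower at adjusted p under 0.05; Cyp7b1 is the only gene coloured on both days.

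Partner genes of the P450 enzymes gave mixed counts. Of 7 measured genes for electron supply and heme, 1 rose and 2 fell on each day (median -0.10 on both). Hmox1, which breaks heme down, rose on both days, at 1.18 ± 0.16 (adjusted p = 0.00059) and 0.75 (adjusted p = 0.0158). The P450-binding Pgrmc1 fell on both days, at -0.30 (adjusted p = 0.00683) and -0.34 (adjusted p = 0.00698). The heme synthesis enzyme Alas1 was lower at day 2 (-0.18, adjusted p = 0.0402) and the electron donor Cyb5a at day 60 (-0.25, adjusted p = 0.0229).

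Of 11 retinoic acid pathway genes, 1 rose and 3 fell at day 2 (median -0.17), and 0 rose and 1 fell at day 60 (median -0.08). Aldh1a1, which makes retinoic acid, was at -0.30 (adjusted p = 0.00886) and -0.39 (adjusted p = 0.00411). The retinal reductase Dhrs3 (-0.56) and the receptor Rarb (-0.40), textbook retinoic acid targets, fell at day 2, and the retinol dehydrogenase Rdh10 rose (0.28, adjusted p = 0.0421). Of 8 epoxide, prostanoid and vitamin D partners, 1 rose and 1 fell at day 2 (median -0.08), and 1 rose and 0 fell at day 60 (median -0.05). Ephx1, the hydrolase that opens epoxides made by P450 enzymes, fell by 0.78 on the log2 scale at day 2 (adjusted p = 0.00104), when the cyclooxygenase Ptgs2 rose by 0.87 (adjusted p = 0.0349).

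Counted by lung rather than by test, 5 members were above their own pool in every CS lung at day 2 (6.17%, against 15.6% of all genes) and 13 were below it (16%, against 15.4%). At day 60 these were 6 (7.41%, against 12.2%) and 17 (21%, against 12.6%). The 5 at day 2 were Cyp7b1, Cyp1b1, Cyp20a1 and the dim Cyp2c38 and Cyp3a16, and Cyp7b1 and Cyp1b1 were also among the 6 at day 60. Cyp1a1, Cyp2d22, Cyp2f2, Cyp2j9, Cyp2c23, Cyp2b9, Cyp4b1 and Cyp4f15 were below their pools in all lungs of both days. Each pool is 1 array, and no test goes with these counts.

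Between the CS lungs of the days, 6 members were higher at day 60 and 1 lower (8.64%), against 26.1% of all genes, 12.2% higher and 13.8% lower. The higher ones were Cyp2s1, Cyp4f39, Cyp27a1, Cyp4f13, Cyp2j9 and Cyp2f2, and the lower one Cyp7b1. Of the bright members 37.5% passed, against 39% of genes above the median level. Some airway markers were higher at day 60 as well, with 5 of 11 club cell markers higher and 2 lower (median 0.14). The club cell marker Scgb1a1 was at 0.02 and did not pass (limma, adjusted p = 0.827). Of the ciliated cell markers 6 of 10 were higher (median 0.24). Fibroblast and smooth muscle markers were lower in 9 of 10 (median -0.56), and B cell markers were higher in 9 of 9 (median 1.29). Macrophage and monocyte markers were higher in 9 of 12 (median 0.34) and alveolar type 2 markers in 6 of 10 (median 0.13). The part of these cells was not tested. In the responses themselves 1 member differed between days (1.23%), against 2.35% of all genes, 1.7% higher and 0.657% lower. This was Cyp7b1.

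Between the PBS pools of the days no member passed in limma, against 0.396% of all genes. At an unadjusted p under 0.05 there were 4 members (4.94%) and 2127 of all genes (10.7%). The smallest p-values were those of Cyp4f39 (0.43), Cyp3a13 (0.55) and Cyp2a12 (0.32, adjusted p = 0.345).

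BLT1 made no difference that passed for any member. After silica at day 2, 0 of 81 differed between BLT1-/- and BLT1+/+ lungs in limma (0.0201% of all genes). At an unadjusted p under 0.05 there were 5 members (6.17%) and 1735 of all genes (8.7%). The 3 smallest p-values were those of Cyp2f2, Cyp39a1 and Cyp4f16. Cyp2f2 was lower in all 3 BLT1-/- CS lungs (13.70 to 13.92) than in the 3 BLT1+/+ CS lungs (14.00 to 14.10), at -0.24 ± 0.06 (unadjusted p = 0.00104, adjusted p = 0.223, 95% interval -0.37 to -0.12), and the pools stood in the same order, 14.22 and 14.34. Cyp39a1 was at 10.75, 10.95 and 10.81 in BLT1+/+ and at 10.55, 10.45 and 10.72 in BLT1-/- CS lungs, at -0.27 ± 0.09 (adjusted p = 0.352), and Cyp4f16 was at 0.23 (adjusted p = 0.486). Club cell and ciliated cell markers had medians of -0.21 and -0.26 in the same comparison, with 0 called, and their part was not tested. For Cyp7b1 the difference was 0.14, with a 95% interval from -0.23 to 0.52.

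At day 60, 0 of 81 differed between BLT1-/-KRasLA1 and BLT1+/+KRasLA1 CS lungs (0.0401% of all genes, 0.015% higher and 0.0251% lower). At an unadjusted p under 0.05 there were 3 members (3.7%) and 810 of all genes (4.06%). The 3 were the dim Cyp2c67 (-0.49 ± 0.17, adjusted p = 0.967), Cyp2u1 (0.20) and Cyp17a1 (0.21). For Cyp7b1 the difference was 0.05, from -0.32 to 0.42. The test of whether the response to silica depends on BLT1 called 0 members and 0% of all genes on both days. At an unadjusted p under 0.05 there were 6 members at day 2 (7.41%, against 4.49% of all genes) and 1 at day 60 (1.23%, against 1.99%). The smallest p-values were those of Cyp2c70 (-0.51 ± 0.19, adjusted p = 0.82), Cyp2c29 (-0.48) and Cyp27b1 (-0.64) at day 2, and of Cyp3a11 (-0.38), Cyp4a10 (-0.68) and Cyp2c67 (-0.66) at day 60, all of them dim. The median standard error of this test over genes was 0.20, against 0.10 for the responses, so it could show only larger differences.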

How the data were processed

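Total RNA of whole lungs was measured in 16 samples. The deposited values are log2 expression levels per probe set. The authors used Partek 6.6 and RMA, per the submitters' processing notes, and no source used here names the exact array. RMA brings arrays to 1 distribution (median 8.25 to 8.34) and pulls dim probe sets towards a floor. Of 35556 probe sets, 21789 carried 1 symbol, 1621 several and 12146 none in the platform annotation. Each of 19938 genes was read from its brightest probe set over the 16 arrays (999 had more than 1).

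One linear model with a mean per group was run in limma 3.58.1 under R 4.3.3 (lmFit, eBayes with a mean-variance trend), with 8 residual and 5.4 prior degrees of freedom. Responses are means over both BLT1 genotypes of CS minus PBS. Tests were two-sided with Benjamini-Hochberg adjustment over all 19938 genes and a threshold of 0.05. Errors are standard errors unless called SD. The fit was tested on simulated data.

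The members, the gene lists and the tests were chosen with earlier results of these data known. Named are all members past the threshold, or the 3 with the smallest p where none passed, and textbook lung members above the median level. Other members are given with their values and chosen after these were seen. Same-numbered CS lungs of both BLT1 genotypes deviated together at day 2 (r = 0.426, 0.200 and 0.345) but hardly at day 60 (0.091, 0.010 and 0.055). The labels do not say that the numbers pair samples, and the main fit did not use them. Promoter letters are from RefSeq GRCm38.p6. No protein sequences were used here.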

Additional observations from a re-analysis of the deposited data

Results flagged for a closer look

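The silica response of Cyp7b1, the oxysterol hydroxylase, differed between the days. It was 2.18 ± 0.17 at day 2 without KRasLA1 and 1.16 ± 0.17 at day 60 with it, a difference of -1.02 ± 0.24 (limma, adjusted p = 0.0481). The call was lost in 9 of 12 fits that each left out 1 CS lung, without the mean-variance trend, and in every fit that left out a pool. All 6 CS lungs of each day were above their own pool, which speaks of each response and not of their difference. Day, allele and the difference of the day 60 pools in sex-linked genes cannot be told apart.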

How the results depend on the processing

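Members that were called, or had the 3 smallest p-values of a comparison, gave 484 values under other settings. Each value belongs to a gene, a comparison and a setting, and many come from the same fit. The direction was kept in all 484. In 430 the side of the threshold was also kept and in 54 a call was lost. At day 2 the 8 called members became 1 without the BLT1-/- PBS pool (Cyp7b1; 1.16% of all genes), and 6 to 8 when 1 CS lung was left out. With replicate numbers as a block 9 passed (16.5% of all genes), and the block lost no call at day 2. At day 60 the 3 called members became 1 without the mean-variance trend (3.46% of all genes), 10 with array weights (8.67%), 5 with the replicate block (5.51%), where Cyp4f18 was lost (adjusted p = 0.0629), 0 without the BLT1-/-KRasLA1 pool (0.762%), 1 without the BLT1+/+KRasLA1 pool (1.17%), and 1 to 6 when 1 CS lung was left out (1 without BLT1-/-KRasLA1 replicate 3, 6 without BLT1+/+KRasLA1 replicate 3). The single member whose response differed between days became 0 without the trend (1.82% of all genes). With array weights (4.39%) and with the replicate block (4.57%) the count was 2, Cyp2s1 being added in both. It was 0 without each of the 4 pools, and 0 to 2 when 1 CS lung was left out. For Cyp7b1 that difference lay between -1.12 and -0.93 over the left-out lungs (adjusted p from 0.00828 to 0.0802). Between CS lungs of the days 6 to 10 members passed in all settings, 10 of them with the block (29.1% of all genes). Cyp1a1, Cyp4b1 and Cyp4f15, not called in either response, passed in some settings. BLT1 differences, interactions and the comparison of pools gave 0 members in every setting. Additive fits without a pool assume that both BLT1 genotypes respond alike. The silica response of that day is then that of the other BLT1 genotype alone. The number of arrays limits the precision, and the pull of RMA on dim probe sets may understate changes of the 65 dim members. The causes of these shifts were not tested.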

Other observations

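P450 enzymes that carry a symbol of another form were measured too, and are given because their values were seen to differ. Cyp51, which removes a methyl group from lanosterol on the way to cholesterol, was at 9.96 in the BLT1+/+ pool with CS lungs at 10.22, 10.49 and 10.30, and at 9.51 in the BLT1-/- pool with CS lungs at 10.48, 10.56 and 10.64. It rose by 0.71 ± 0.10 at day 2 (1.64-fold, limma, adjusted p = 0.000904) and was at 0.29 at day 60 (adjusted p = 0.169). After silica it was lower at day 60 than at day 2 by 0.36 on the log2 scale (adjusted p = 0.00234).

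Tbxas1, the thromboxane synthase of macrophages and platelets, was at 8.72 in the BLT1+/+KRasLA1 pool with CS lungs at 9.82, 9.58 and 9.29, and at 8.62 in the BLT1-/-KRasLA1 pool with CS lungs at 9.61, 9.26 and 9.47. It rose by 0.83 ± 0.12 at day 60 (adjusted p = 0.00163), and its responses differed between days by 0.78 (adjusted p = 0.0308). Ptgis, the prostacyclin synthase of vessels, was at -0.04 and -0.22 and did not pass.

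Cyp4a12a and Cyp4a12b, fatty acid hydroxylases known for higher levels in males, were higher in CS lungs of day 60 than of day 2 by 1.35 ± 0.15 (adjusted p = 3.58e-05) and 1.32 ± 0.21 (adjusted p = 0.000457). The PBS pools differed in the same direction, by 0.95 ± 0.26 and 1.18 ± 0.36, without passing (limma, adjusted p = 0.161 and 0.221). Neither gene passed in the silica response at day 2 (-0.55 and -0.81) or at day 60 (-0.15 and -0.66). For Cyp4a12a the highest array was BLT1+/+KRasLA1 CS replicate 2 at 8.72, the lung in which Eif2s3y was at 10.09. The other 5 CS lungs of day 60 were at 7.41 to 8.25, also above every CS lung of day 2 (at most 6.86). For Cyp4a12b the BLT1+/+KRasLA1 pool was highest at 9.21, and that lung was at 9.08. The part of that lung in the difference between CS lungs was not tested.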
